A study of Mus musculus with 27 samples.

Results

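The 10 genes described here are those that set skeletal muscle fibre type or make up the contractile and energy machinery of the fibre: Myh1, Myh2, Myh4, Tnnt3, Tnni2, Atp2a1 and Pvalb of fast fibres, Myh7 of slow fibres, and Acta1 and Ckm of both. They were chosen by name, with earlier results of these data known. Each has 1 probe set on the array, and they are 10 of 20239 named genes. The question was how these genes read in lung, array by array, and in particular on the array labelled C3H/HeJ replicate 2.

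Skeletal muscle fibres differ in how fast they contract and how they make ATP. A fibre's type is set largely by its myosin heavy chain, the motor of the thick filament: Myh4, Myh1 and Myh2 encode the heavy chains of fast fibres, and Myh7 encodes that of slow fibres, which is also a heavy chain of heart muscle. Healthy lung tissue holds smooth muscle and, in rodents, heart-type muscle around the pulmonary veins, but no skeletal muscle fibres.

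RNA of the right lung was measured in female mice of 11 weeks, 3 mice from each of 9 inbred strains, on 27 Mouse Gene 1.0 ST arrays. No treatment was given. Severity and frequency of spontaneous pulmonary adenoma are labelled increased in A/J, C57BL/6J and DBA/2J and decreased in KK/HlJ and MRL/MpJ; C3H/HeJ, C57L/J, BALB/cJ and 129S1/SvlmJ are labelled increased in severity and decreased in frequency. The class belongs to the strain and not to the mouse, and the number of arrays, 3 a strain, limits the precision. The samples are listed strain by strain, apart from 1 MRL/MpJ array. The labels used here give no order in which the arrays were processed. Any effect of such an order and that of the strain cannot be told apart.

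The array of C3H/HeJ replicate 2 stood apart. There, 218 of 20239 genes (1.08%) were past the fold, meaning higher than on each of the other 26 arrays and at least 1 log2 unit (2-fold) above the mean of the other 8 strain means; 19 genes were lower by the same rule. On each of the other 26 arrays the same rule took 4 to 99 genes, with a median of 19. Lung markers were present on it: the summed linear signal of 12 lung epithelial genes was 37902, beside 40092 and 40303 on replicates 1 and 3 and 37006 to 45995 on the other 24 arrays. Sftpc, the surfactant protein C gene of alveolar type II cells, differed by -0.03 log2 units from the other strains, and Cldn18, an alveolar tight junction gene, by -0.59, the lowest level of the 27 arrays. As a measure of background, 7 genes of the Y chromosome, absent from female mice, read 2.38 to 5.56 on the log2 scale; above 3.93 that range rests on Sry.

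On C3H/HeJ replicate 2, 9 of the 10 genes were past the fold (1.08% of all genes were), and the median difference of the 10 from the mean of the other 8 strains was 4.04 log2 units against 0.03 for all genes. The exception was Myh7. On the other 26 arrays the median difference of the 10 ran from -0.53 to 0.12, and the highest of them lay 2.20 to 6.02 log2 units below replicate 2 for the 9 genes. This array was named with its values known and stands alone, so these are values of 1 library, with no test. In bulk tissue, more fibres in a sample and more RNA per fibre cannot be told apart.

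**Figure D1:**
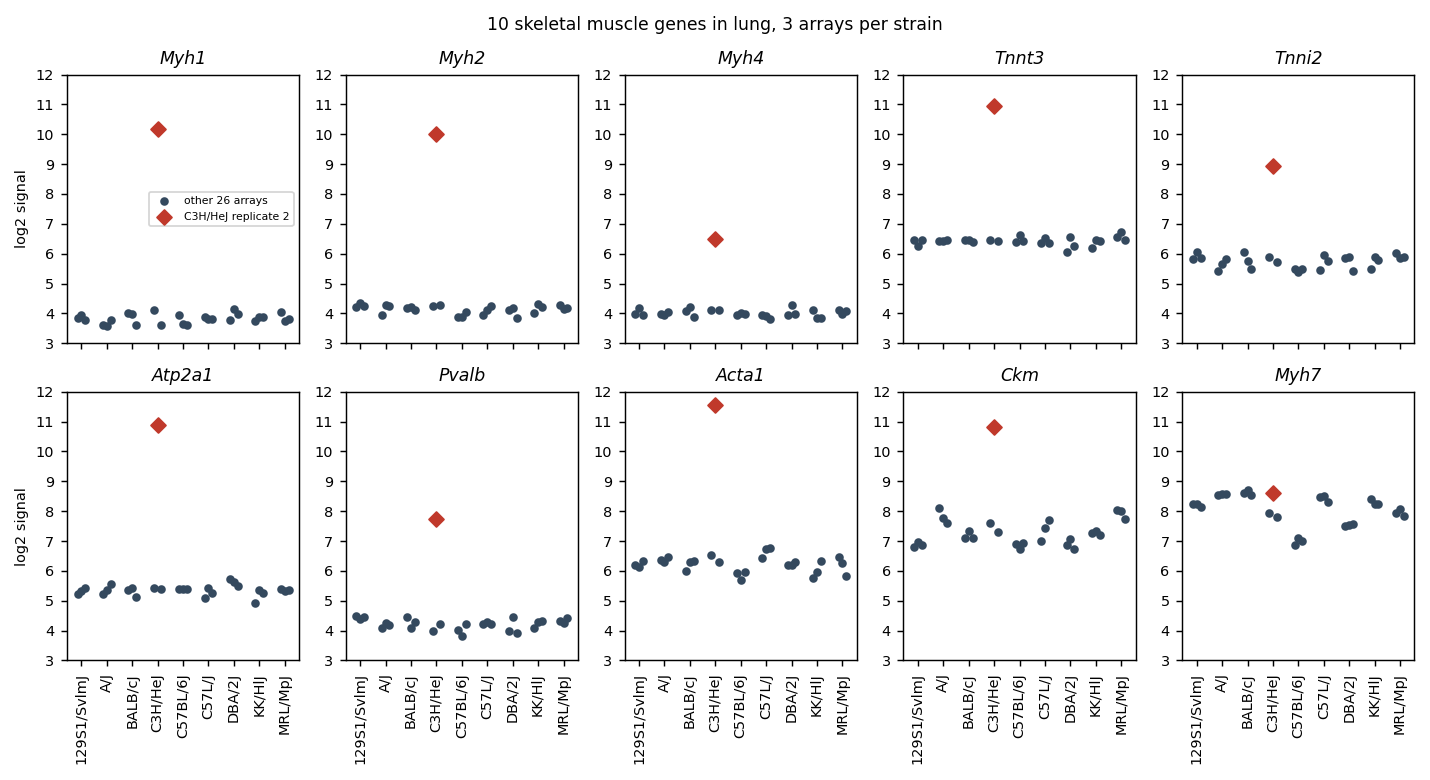
Log2 signal of each of the 10 genes on the 27 arrays, in 1 panel per gene, with the strains on the horizontal axis; each dot is 1 array and the red diamond is C3H/HeJ replicate 2. The diamond lies above every dot in 9 panels and among the dots in that of Myh7 (8.60, other arrays 6.87 to 8.72).

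The 3 fast myosin heavy chains each read higher on replicate 2 than on any other array. Myh1, the heavy chain of type 2X fibres, read 4.11, 10.17 and 3.60 on C3H/HeJ replicates 1, 2 and 3, and 3.58 to 4.14 on the other 24 arrays. Replicate 2 alone was high, by 6.34 log2 units (81.1-fold) over the other strains. The other arrays lay within the Y-linked range, which above 3.93 rests on Sry, so this fold may understate the difference. Myh2, the type 2A chain, read 4.25, 10.001 and 4.28 on the C3H/HeJ arrays and 3.86 to 4.35 on the others. It was 58.5-fold higher on replicate 2 than in the other strains. Myh4, the type 2B chain of the fastest fibres, read 4.12, 6.49 and 4.10, with 3.83 to 4.29 on the others. Its difference was 2.49 log2 units (5.6-fold). The folds of Myh2 and Myh4 may be understated in the same way, with the same limit. For all 3 genes the remaining 26 arrays did not overlap with replicate 2, the nearest being 6.02, 5.65 and 2.20 log2 units below it for Myh1, Myh2 and Myh4. Levels of different genes were not set against each other, since probe sets differ in their response.

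These 3 genes lie side by side in the myosin heavy chain cluster of chromosome 11, in the order Myh3, Myh2, Myh1, Myh4, Myh8, Myh13. The flanking members read within the range of the other arrays on replicate 2: Myh3, the embryonic chain, differed by 0.04, Myh8, the perinatal chain, by 0.35 and Myh13, the extraocular chain, by -0.02 log2 units. All 3 flanking genes lay within the Y-linked range on every array, which above 3.93 rests on Sry. The genes of the cluster are alike in sequence, and how far a probe set reads its neighbours' transcripts was not tested. The 250 bases before the start sites of the 3 fast genes (RefSeq, GRCm38.p6, plus strand, chr11:67170777-67171026, chr11:67199852-67200101 and chr11:67237562-67237811) are shown because all 3 read high on replicate 2. Over the other 26 arrays their correlations were 0.16 (Myh1 and Myh2), 0.45 (Myh1 and Myh4) and 0.15 (Myh2 and Myh4). Capitals mark the longest run that all 3 share, of 20 bases.
Myh2: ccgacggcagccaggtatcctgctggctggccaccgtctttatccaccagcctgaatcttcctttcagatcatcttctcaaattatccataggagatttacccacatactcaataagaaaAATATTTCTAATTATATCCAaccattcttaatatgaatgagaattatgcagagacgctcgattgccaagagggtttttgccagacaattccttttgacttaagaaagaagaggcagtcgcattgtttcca
Myh1: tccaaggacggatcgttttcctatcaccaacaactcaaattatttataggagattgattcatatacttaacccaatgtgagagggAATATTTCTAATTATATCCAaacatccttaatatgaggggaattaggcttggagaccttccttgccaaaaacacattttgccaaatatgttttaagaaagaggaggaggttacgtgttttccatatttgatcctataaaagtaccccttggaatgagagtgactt
Myh4: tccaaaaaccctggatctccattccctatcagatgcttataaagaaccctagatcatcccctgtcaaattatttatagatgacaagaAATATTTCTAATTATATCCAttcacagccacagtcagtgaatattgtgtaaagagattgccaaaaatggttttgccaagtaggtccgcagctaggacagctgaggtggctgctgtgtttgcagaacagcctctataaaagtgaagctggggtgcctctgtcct
The run ends 111, 146 and 144 bases before the start in Myh2, Myh1 and Myh4. Among 32851 promoters of that length, searched on both strands, it was found in 3 (0.00913%), which are these 3. The run was taken from them, so their matches were given in advance, and a link with the levels was not tested. The TATA box letters TATAAA were found in Myh1 and Myh4 and in 12.4% of all promoters. A match is a description of letters and not of a bound site.

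The thin-filament and calcium genes of fast fibres were high on the same array. Tnnt3, the fast troponin T that ties the troponin complex to tropomyosin, read 6.46, 10.96 and 6.43 on C3H/HeJ replicates 1, 2 and 3 and 6.05 to 6.72 on the others, a 23.3-fold difference on replicate 2. Tnni2, the inhibitory troponin subunit of fast fibres, read 5.90, 8.92 and 5.70, with 5.39 to 6.07 on the others (9.13-fold). Atp2a1 encodes the calcium pump SERCA1, which refills the sarcoplasmic reticulum after contraction. It read 5.44, 10.89 and 5.39, with 4.93 to 5.72 on the others (46.6-fold). Most of the range of Atp2a1 elsewhere, and part of that of Tnni2, lay within that of the Y-linked set, at levels only Sry reached. These folds may therefore understate the difference. Pvalb, the calcium buffer parvalbumin that speeds relaxation, read 3.97, 7.73 and 4.21, with 3.83 to 4.50 on the others. Its difference was 3.50 log2 units (11.3-fold). This too may be understated, since the other arrays lay within the Y-linked range, mostly at levels only Sry reached. In each of the 4 genes replicate 2 was high and replicates 1 and 3 lay among the other strains.

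Tnni2 and Tnnt3 are near neighbours on chromosome 7, in the order Ctsd, Syt8, Tnni2, Lsp1, Prr33, Tnnt3, H19, Igf2. Between them, Lsp1, a leukocyte gene, differed by 0.20 log2 units on replicate 2 and Prr33 by 1.21. H19, an imprinted RNA that skeletal muscle continues to make after birth, was the gene outside all lists with the largest difference past the fold. It read 10.14 on replicate 2 and 8.20 and 7.56 on replicates 1 and 3, with a difference of 4.28 log2 units from the other 8 strains. Replicate 1 was the highest of the other 26 arrays, whose lowest read 5.13. Igf2, next to H19, differed by 0.26.

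The genes of all fibre types were high on replicate 2 as well. Acta1, skeletal alpha-actin of the thin filament, read 6.53, 11.56 and 6.29 on C3H/HeJ replicates 1, 2 and 3, and 5.71 to 6.77 on the others, a 40.7-fold difference. Ckm, the muscle creatine kinase that buffers ATP, read 7.60, 10.81 and 7.30, with 6.73 to 8.09 on the others (11.6-fold). Both genes read above the Y-linked range on each of the 27 arrays, Ckm with strain differences described further on. The promoter of Acta1 (RefSeq, GRCm38.p6, minus strand, chr8:123894776-123895025) is shown for its CArG box, the motif bound by serum response factor, in capitals 73 to 64 bases before the start.
Acta1: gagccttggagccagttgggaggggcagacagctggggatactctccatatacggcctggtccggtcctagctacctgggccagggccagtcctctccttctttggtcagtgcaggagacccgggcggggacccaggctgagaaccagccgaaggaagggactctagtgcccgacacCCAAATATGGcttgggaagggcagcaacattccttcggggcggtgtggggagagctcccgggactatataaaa
A CArG box was found in 1.47% of the 32851 promoters, and among the genes described here in Acta1 and Myh4. The E-box letters CANNTG, which myogenic factors bind, were found in 66.2% of promoters and in Acta1, Atp2a1, Ckm, Myh4, Myh7 and Pvalb. The promoter table held 8 of the 10 genes. Tnnt3 and Tnni2 were not matched.

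Myh7 did not follow the others. It read 7.95, 8.60 and 7.80 on C3H/HeJ replicates 1, 2 and 3. Replicate 2 was 0.65 and 0.80 log2 units above its strain mates and 0.53 above the mean of the other strains, but arrays of the other strains ran from 6.87 to 8.72, and a BALB/cJ array was higher.

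Other slow fibre genes did separate. Of 17 measured genes of the slow list, 10 were past the fold on replicate 2, with a list median of 1.45 log2 units, and of 24 of the fast list 20 were, with a median of 2.62; all 24 fast genes were highest on this array, and 12 of the 17 slow genes. Among slow genes, Mybpc1, slow myosin-binding protein C, was 5.47 above the other strains, Mb, the oxygen store myoglobin, 2.76, Myl2, a regulatory light chain, 2.51, Tpm3, a slow tropomyosin, 2.21, Car3, a carbonic anhydrase also made in fat, 2.19, and Tnni1, slow troponin I, 1.70. Below 1 log2 unit were Casq2 at 0.92, Ankrd2 at 0.90, Myh7 at 0.53, Csrp3 at 0.39, Atp2a2 at 0.22, Myl6b at 0.18 and Myh7b at 0.11. Several of these, among them Atp2a2 (SERCA2) and Csrp3, are also expressed in heart muscle. So are slow genes past the fold, among them Mb, Myl2, Myl3 (1.45) and Tnnc1 (1.08). The minimum of 1 log2 unit is set against the other strains, and distances from the strain mates differed. On C3H/HeJ replicates 1, 2 and 3, Mybpc1 read 4.37, 9.77 and 4.33, but Myl3 read 7.05, 7.46 and 6.48. Tnnc1 read 8.44, 9.34 and 8.61, and Tnnt1, also past the fold, 5.49, 6.47 and 5.21. Myl3 and Tnnt1 were called higher in C3H/HeJ without replicate 2 too, as given further on. Without the 7 fast genes described one by one above, 13 of the 17 remaining fast genes were past the fold, with a median of 2.27; without Myh7, 10 of 16 slow genes were, with a median of 1.57. Myl1, a fast essential light chain, differed by 5.49 and Tnnc2, fast troponin C, by 4.83. The fast genes short of 1 were Mylk2 and Sln at 0.98 each, Aldoa at 0.58 and Myoz3 at 0.47. No difference between the lists was tested, and a difference of log2 values depends on the level of each gene elsewhere in the lung.

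**Figure D2:**
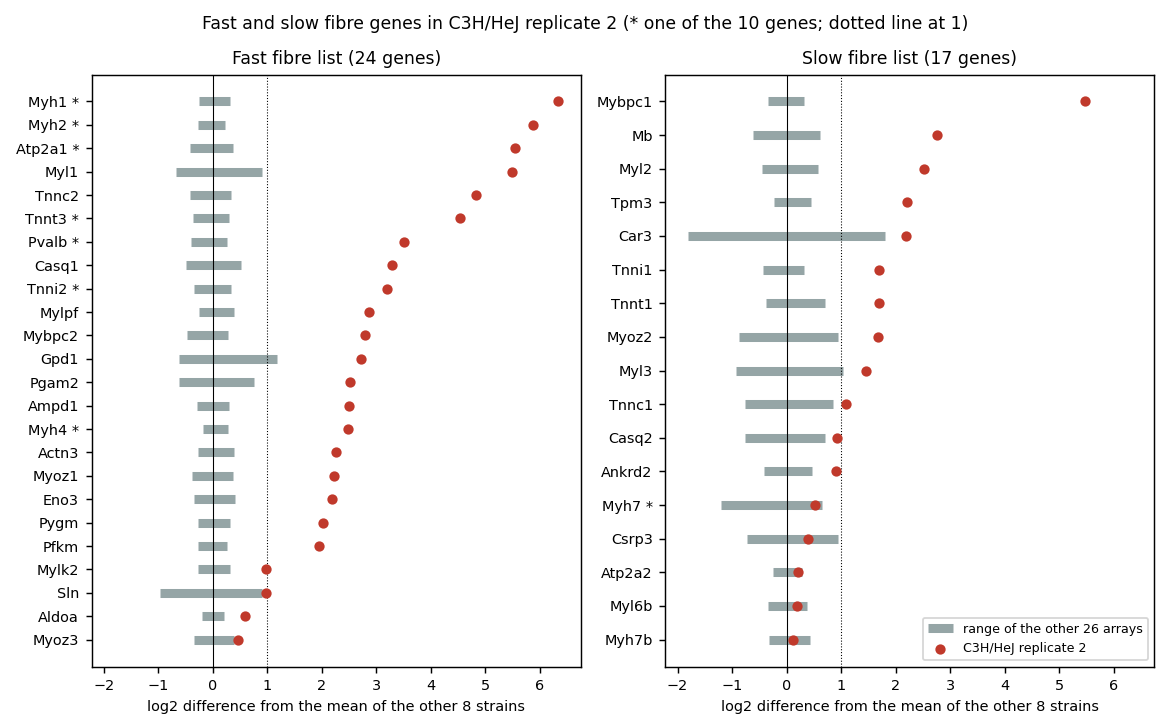
Log2 difference of C3H/HeJ replicate 2 from the mean of the other 8 strain means for each measured gene of the fast list (24 genes, left) and the slow list (17 genes, right); red points are replicate 2, grey bars the range of the other 26 arrays, and an asterisk marks the genes described one by one. The points lie beyond the dotted line at 1 for 20 fast and 10 slow genes, and that of Myh7 (0.53) lies inside its grey bar.

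Many structural and coupling genes were high on the same array. These lists overlap with the fast list, which also counts Myoz1 of the sarcomere list and Casq1 and Atp2a1 of the coupling list. Of 34 measured sarcomere and fibre genes, 25 were past the fold, with a median of 1.59 log2 units. Apart from Acta1 and Ckm, the largest differences were those of Myot, a Z-disc protein, at 4.68, Neb, the thin-filament ruler nebulin, at 4.28, Xirp2 at 3.69, Ckmt2, the mitochondrial creatine kinase, at 3.31, and Cox8b, a subunit of cytochrome oxidase, at 3.07. Klhl40 at 0.01 and Cav3 at -0.02 showed no such difference. Of 17 genes that couple excitation to contraction, 10 were past the fold, with a median of 1.12; beside Atp2a1 they included Casq1, the calcium store of fast fibres, at 3.29, Ryr1, the calcium release channel, at 2.74, and Cacna1s, its voltage sensor, at 1.90.

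Genes of muscle development and of the nerve-muscle contact mostly stayed within the range of the other arrays. Among 11 developmental myosins and myogenic factors, 1 was past the fold: Myf6, the myogenic factor of mature fibres, at 1.31. Myod1 differed by 0.19, Myog by -0.09 and Pax7, which marks satellite cells, by 0.08. None of 11 genes of the neuromuscular junction was past the fold; the largest differences were those of Musk, a receptor kinase of the junction, at 0.92 and Dok7 at 0.54. Among 8 probe sets of muscle microRNAs none was past the fold, the largest differences being Mir133a-1 at 0.71 and Mir1a-1 at 0.57. Both read above every other array (3.78 against at most 3.52, and 3.06 against at most 2.72). The 8 microRNA probe sets lay within or below the Y-linked range on every array. Many other genes of this paragraph also lay within it, with Myh3 at 3.99, Myog at 4.68 and Chrna1 at 4.36 on replicate 2. That range is 2.38 to 5.56 and above 3.93 rests on Sry. For such genes a lack of signal and a lack of change cannot be told apart.

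Markers of other tissues were read on the same array, and their part in the result was not tested. Most fat markers were high: 6 of 11 white fat genes were past the fold with a list median of 1.72, led by Fabp4 at 2.70, Pck1 at 2.70 and Retn at 2.32, and 7 of 8 brown fat genes with a median of 1.28, led by Ucp1, the uncoupling protein that makes heat, at 4.84 and Cidea at 2.94. The remaining brown fat gene, Prdm16, went the other way, by -0.27. It read 6.51 on replicate 2 and 6.57 to 6.97 on the other 26 arrays. Dio2, past the fold at 1.08, read 5.52, 6.04 and 5.21 on C3H/HeJ replicates 1, 2 and 3. Adipoq, the adipocyte hormone adiponectin, differed by 2.18 but was higher on another array (8.62 against 8.57). The summed linear signal of the brown fat list was 1993 on replicate 2, 413 and 376 on replicates 1 and 3 and 333 to 657 on the other 24 arrays; that of the white fat list was 5818, 1502 and 1833, and 1084 to 3991. Of 7 tendon genes 3 were past the fold, Kera at 2.30, Fmod at 2.03 and Thbs4 at 1.71, with a summed signal of 504 against 203 to 273 on the other 26 arrays.

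Markers of heart, smooth muscle and neighbouring organs showed no gene past the fold. Of 15 cardiac genes none was past the fold, and their median difference was 0.04; their summed linear signal was 5541 on replicate 2, 6043 and 5711 on replicates 1 and 3 and 3576 to 8079 on the other 24 arrays. Myh6, the heavy chain of adult mouse heart, differed by -0.06 and Nppa, an atrial hormone, by -1.43. For comparison, the fast list summed to 17043 on replicate 2, 3215 and 3255 on its strain mates and 2999 to 4007 on the others, and the slow list to 12165, 4958 and 5233, and 3514 to 7226. A linear sum weighs the brightest genes most. In the slow list these were Car3 and Atp2a2, at 12.02 and 11.22 (log2) on replicate 2. In the fast list Aldoa read 10.57 and 10.70 on the strain mates and 11.35 on replicate 2. None of 9 smooth muscle, 12 oesophageal and squamous, 10 thymus, 7 nerve, 10 cartilage, 12 lung epithelial or 8 endothelial genes was past the fold, and the medians of these lists ran from -0.16 for lung epithelium to 0.19 for cartilage.

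**Figure D3:**
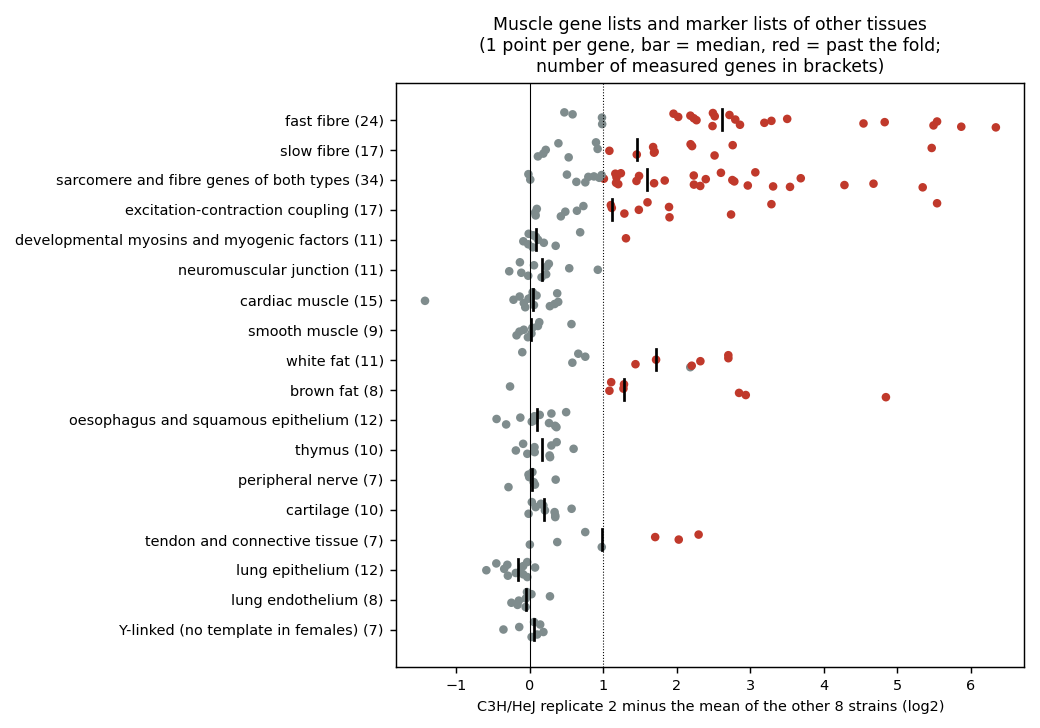
Log2 difference of C3H/HeJ replicate 2 from the mean of the other 8 strain means for every measured gene of 6 muscle lists and 12 marker lists; each point is 1 gene, black bars are list medians and red points are past the fold. Red points lie in the fibre lists, 1 in the developmental list, and in the white fat, brown fat and tendon lists, and there is none in the cardiac or smooth muscle list.

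Outside all lists, the genes furthest past the fold after H19 were an immunoglobulin kappa variable segment at 3.81, then Ankrd23 at 3.15, Thrsp, a gene of fat synthesis, at 2.83, Tmem45b at 2.72 and Pdk4, which spares glucose in muscle and other tissues, at 2.62. They were followed by Fitm1, Tmem182, Apobec2, Angptl7, Hspb6, a further kappa variable segment, Klhl31, Cmya5 and Nrap at 2.58 to 2.33.

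The correlations between the 10 genes rested on this array. Pearson correlations of the 45 gene pairs ran from 0.14 to 0.99 with a median of 0.94 over 27 arrays, and from -0.41 to 0.79 with a median of 0.17 over the 26 without replicate 2. The genes most like the mean of the 10 over 27 arrays were Mybpc1 (0.990), Ryr1 (0.990), Neb (0.989), Tnnc2 (0.989) and Myot (0.989), followed by Trdn, Mylpf, Myl1, Kera and Casq1 at 0.977 to 0.958. Over 26 arrays they were Fam71f1 (0.868), Baiap2l2 (0.846), Aqp12 (0.815), Extl1, AU019990, Zdhhc24, Arnt2, Rspo4, Abcc8 and 4931440P22Rik, none of which is in a muscle list. These are descriptions; the arrays share strain and processing.

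Whether the 10 genes were called in C3H/HeJ as a strain turned on the same array. Replicate 2 was named with its values known, so calls that include it are given as description and support nothing. With all 27 arrays, 5 of the 10 genes were called higher in C3H/HeJ than in the mean of the other 8 strains (limma, adjusted p under 0.05), where 4.18% of all genes were: Myh2 by 2.05 log2 units (SE 0.61, adjusted p = 0.0421), Myh4 by 0.90 (adjusted p = 0.0364), Acta1 by 1.91 (adjusted p = 0.0371), Ckm by 1.30 (adjusted p = 0.0336) and Atp2a1 by 1.89 (adjusted p = 0.0496). Myh1, with the largest difference at 2.13 (SE 0.67), did not pass at an adjusted p of 0.0559, nor did Tnni2, Tnnt3, Pvalb and Myh7. In each case 1 of the 3 mice carried the difference. Without replicate 2 none of the 10 was called (2.06% of all genes were), the differences lying between -0.20 for Myh7 and 0.19 for Acta1. Without replicate 1, or without replicate 3, the count was 9; leaving out 1 array of another strain gave 3 or 4. With array weights, or with a robust prior and an intensity trend, none was called. Among the lists, 11 of 24 fast, 7 of 17 slow and 11 of 34 both-type genes were called higher with all 27 arrays, and 0, 2 and 1 without replicate 2. Those still called were the slow light chain Myl3 (0.76 log2 units, limma adjusted p = 0.00239), the slow troponin Tnnt1 (0.57, adjusted p = 0.00915) and Hspb7, a small heat shock protein of muscle (0.45, adjusted p = 0.0233).

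Without C3H/HeJ replicate 2 a different pattern was left, in which strains differed in Myh7, Ckm and Acta1. A moderated F test over the 9 strains called these 3 of the 10 genes on 26 arrays, where 29.6% of all genes were called, and Myh7 alone on 27 arrays, where 28.9% were. Adjusted p-values on 26 and 27 arrays were 4.32e-12 and 9.29e-09 for Myh7, 1.16e-05 and 0.0754 for Ckm and 0.0086 and 0.268 for Acta1. For the other 7 genes they lay between 0.132 and 0.636 on 26 arrays. None of the 7 fast genes was called between strains by this test, and 4 of them, Myh1, Myh2, Myh4 and Pvalb, lay within the Y-linked range.

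Myh7, the slow and heart myosin chain, was lowest in C57BL/6J. The 3 C57BL/6J mice read 6.87, 7.10 and 6.998, for a mean of 6.99 ± 0.12 (SD, n = 3), below each array of every other strain. Next in order were DBA/2J at 7.54 ± 0.04, C3H/HeJ at 7.87 ± 0.10 (n = 2), MRL/MpJ at 7.95 ± 0.12, 129S1/SvlmJ at 8.20 ± 0.06, KK/HlJ at 8.30 ± 0.10, C57L/J at 8.43 ± 0.11, A/J at 8.56 ± 0.01 and BALB/cJ at 8.62 ± 0.09. The BALB/cJ mice read 8.60, 8.72 and 8.55, and the A/J mice 8.55, 8.56 and 8.56. By adjusted p alone (under 0.05, whatever the size), a threshold that 29 of the 36 pairs passed for Myh7, the neighbours in this order that differed were C57BL/6J and DBA/2J (0.55 log2 units, adjusted p = 7.08e-05), DBA/2J and C3H/HeJ (0.34, adjusted p = 0.0358), and MRL/MpJ and 129S1/SvlmJ (0.25, adjusted p = 0.0432). The other neighbours did not pass, with adjusted p from 0.449 to 0.808.

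Against the mean of the other 8 strains on 26 arrays, Myh7 was lower in C57BL/6J (-1.20 log2 units, SE 0.06, limma adjusted p = 3.89e-12), and it was also lower in DBA/2J (-0.58, adjusted p = 8.45e-07). It was higher in BALB/cJ by 0.64 (adjusted p = 2.91e-07), in A/J by 0.57 (adjusted p = 1.19e-06), in C57L/J by 0.42 (adjusted p = 4.77e-05) and in KK/HlJ by 0.28 (adjusted p = 0.0034). The call in KK/HlJ was lost without KK/HlJ replicate 1 (adjusted p = 0.0624). With all 27 arrays Myh7 was the only gene of the 10 called in a strain other than C3H/HeJ: higher in A/J, where 1.96% of genes were called higher, in BALB/cJ (2.48%) and in C57L/J (3.69%), and lower in C57BL/6J (4.11%) and in DBA/2J (1.94%). The genes most like Myh7 over the 26 arrays were Nnt, the mitochondrial transhydrogenase, at r = 0.877, Abhd1 at 0.849, Wdfy1 at 0.847, Itgbl1 at 0.839 and Atp10d at 0.827.

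Ckm, the muscle creatine kinase, was highest in MRL/MpJ and A/J. MRL/MpJ mice read 8.06, 7.999 and 7.72, and A/J mice 8.09, 7.76 and 7.59, while each of the 9 arrays of C57BL/6J, 129S1/SvlmJ and DBA/2J lay between 6.73 and 7.06, below those 6. Strain means rose from 6.86 ± 0.11 in C57BL/6J, 6.87 ± 0.08 in 129S1/SvlmJ and 6.89 ± 0.17 in DBA/2J through 7.19 ± 0.14 in BALB/cJ, 7.26 ± 0.06 in KK/HlJ, 7.37 ± 0.36 in C57L/J and 7.45 ± 0.21 in C3H/HeJ (n = 2) to 7.81 ± 0.25 in A/J and 7.93 ± 0.18 in MRL/MpJ (SD, n = 3). No pair of neighbours in this order passed that threshold, with adjusted p from 0.266 to 0.973 among those neighbours. Against the mean of the others Ckm was higher in MRL/MpJ by 0.71 log2 units (SE 0.11, adjusted p = 0.000162) and in A/J by 0.59 (adjusted p = 0.00144). It was lower in C57BL/6J (-0.49, adjusted p = 0.00582), 129S1/SvlmJ (-0.47, adjusted p = 0.00699) and DBA/2J (-0.46, adjusted p = 0.0146). Each of these lower calls was lost without 1 array: C57BL/6J replicate 2 (adjusted p = 0.0804), 129S1/SvlmJ replicate 1 (adjusted p = 0.0563), or DBA/2J replicate 1 or 3 (adjusted p up to 0.164).

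Genes of heart muscle also varied between strains, in part in the order of Ckm. Of the 15 cardiac markers, 13 passed the F test on 26 arrays. In MRL/MpJ 10 of the 15 were called higher (7.76% of all genes), with a list median of 0.59 log2 units, and in A/J 6 were (2.27%), with a median of 0.32. In the strains with Ckm called lower the cardiac medians were -0.23 in C57BL/6J, with 4 genes lower (4.38%), -0.14 in 129S1/SvlmJ, with 4 lower (6.91%), and -0.03 in DBA/2J, with none lower (2.09%). BALB/cJ had the lowest cardiac median, -0.36, while Ckm was not called there (-0.12, limma adjusted p = 0.723) and Myh7 was at its highest. C57L/J, with a cardiac median of -0.17, below those of 129S1/SvlmJ and DBA/2J, had no call of Ckm either (0.09, limma adjusted p = 0.755). The summed linear signal of the cardiac list ran from 6806 to 8079 on the MRL/MpJ arrays, 5187 to 7914 in A/J, 4161 to 4743 in C57BL/6J and 3576 to 4406 in BALB/cJ. Over the 26 arrays the genes most like Ckm, a gene singled out after its values were seen, were Ckmt2 (r = 0.857), Actn2 (0.857), Eno3 (0.83), Mylk3 (0.825) and Atp2a2 (0.824). In MRL/MpJ 17 of 34 sarcomere and fibre genes of both types and 7 of 17 slow genes were called higher, and 3 of 24 fast genes, beside 7.76% of all genes. The part of heart muscle RNA in the strain differences of Ckm was not tested.

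Acta1, skeletal actin, was highest in C57L/J, where the mice read 6.45, 6.75 and 6.77, and lowest in C57BL/6J, where they read 5.93, 5.71 and 5.95. Those strains did not overlap, but KK/HlJ (5.77 to 6.33) and MRL/MpJ (5.82 to 6.46) overlapped with C57BL/6J, and C3H/HeJ replicate 1 (6.53), A/J (up to 6.48) and MRL/MpJ overlapped with C57L/J. Acta1 was higher in C57L/J than in the mean of the others by 0.46 log2 units (SE 0.11, limma adjusted p = 0.00811) and lower in C57BL/6J (-0.43, adjusted p = 0.0143). The first call was lost without C57L/J replicate 2 or 3 (adjusted p up to 0.0874), and the second without C57BL/6J replicate 2 (adjusted p = 0.164). Atp2a1, the SERCA1 gene, was called higher in DBA/2J, by 0.28 (adjusted p = 0.0475) at levels of 5.72, 5.62 and 5.49, close to the upper end of the Y-linked range. That call was lost in 17 of 26 fits that left out 1 array each, and with a robust prior and an intensity trend.

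The calls on 26 arrays are set here beside the share of all genes called in the same comparison. Lower in C57BL/6J were 3 of the 10 genes (4.38% of all genes), lower in DBA/2J 2 (2.09%) and lower in 129S1/SvlmJ 1 (6.91%). Higher were 2 in A/J (2.27%), 2 in C57L/J (4.12%), and 1 each in BALB/cJ (2.68%), DBA/2J (2.93%), KK/HlJ (4.82%) and MRL/MpJ (7.76%). With an adjusted p under 0.05 and at least 1 log2 unit, 2 of the 10 genes were called in 1 or more of the 36 strain pairs (4.27% of all genes, on 27 as on 26 arrays). On 26 arrays Myh7 was called in 7 pairs, C57BL/6J against 129S1/SvlmJ, A/J, BALB/cJ, C57L/J and KK/HlJ, and DBA/2J against A/J and BALB/cJ; Ckm was called in 3, MRL/MpJ against 129S1/SvlmJ, C57BL/6J and DBA/2J. With replicate 2 in the fit the 3 pairs of Ckm were different ones, each with C3H/HeJ.

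**Figure D4:**
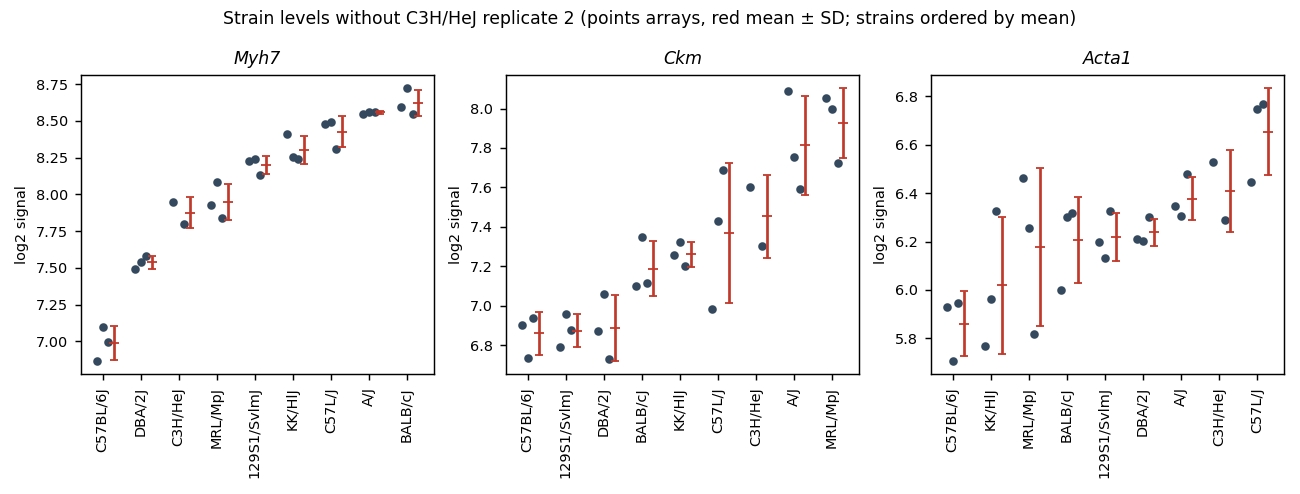
Log2 signal of Myh7, Ckm and Acta1 by strain without C3H/HeJ replicate 2, strains ordered by mean in each panel; dots are arrays and red bars the mean ± SD (n = 3, C3H/HeJ n = 2). Myh7 is lowest in C57BL/6J (6.99) and highest in BALB/cJ (8.62), Ckm highest in MRL/MpJ (7.93) and Acta1 highest in C57L/J (6.65); each vertical axis has its own range and does not start at 0.

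Between the adenoma classes, tested with limma on 9 strain means, none of the 10 genes was called. Severity increased (7 strains) against decreased (2 strains) gave an adjusted p of at least 0.765 on 26 arrays, where 0.00988% of all genes were called (the same share as on 27 arrays). Frequency increased (3 strains) against decreased (6 strains) called 0% of genes, and strains increased in both against those decreased in both 0%; at an unadjusted p under 0.05 these comparisons took 1414 and 1593 of 20239 genes. Before adjustment, Tnni2 and Myh2 passed that level for frequency on 26 arrays, and none of the 10 did on 27. Tnni2 differed by -0.21 and Myh2 by -0.15 log2 units (increased minus decreased frequency), with a limma adjusted p of 0.707 for both. The strain means of the classes overlapped for both genes: Tnni2 was at 5.72 in DBA/2J, of increased frequency, and 5.71 in KK/HlJ, of decreased frequency, and Myh2 at 4.16 in A/J and 4.10 in C57L/J.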

How the data were processed

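Lung RNA was hybridised to 27 arrays, 3 mice for each of 9 strains. The deposited values are log2 signal per probe set, made with the affy package per the submitters' processing notes; its version and the normalization are not given in the sources used here. Array medians ran from 6.24 to 6.37, so values were used as deposited. Of 21225 probe sets, 20239 had 1 gene symbol and 986 had none and were left out. A strain's own sequence can match the probes less well, and this and a lower transcript amount cannot be told apart here.

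R 4.3.3 and limma 3.58.1 (lmFit, eBayes) were used with 1 mean per strain: a moderated F test, each strain against the mean of the other 8, and 36 pairs, each with Benjamini-Hochberg adjustment over all named genes (adjusted p under 0.05; pairs also at least 1 log2 unit). Adenoma classes were tested on strain means. All fits were run with and without C3H/HeJ replicate 2. The F test, the C3H/HeJ contrast and the severity test were tried on simulated data of 27 arrays with no outlying array. Alternatives were median centring or quantile normalization of the arrays, dropping dim probe sets (mean under 6), adding the unnamed ones, weighting the arrays, a robust prior with an intensity trend, blocking on the replicate number, and omitting each array in turn.

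The 10 genes and the 18 lists (240 entries, 230 measured) were chosen with earlier results of these data known. Named were the 10 genes, from each list up to 6 genes of largest difference (markers up to 4), slow genes below 1, the 15 genes of largest difference outside the lists and those most like the 10 genes; fast genes below 1 and the further genes named for contrast were added after their values were seen. Lists are described by counts and medians, with no test. Promoter sequences and gene order are from RefSeq, GRCm38.p6.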

Additional observations from a re-analysis of the deposited data

Results flagged for a closer look

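Strain means were checked for a strain far from the others of its adenoma class, among the 7 strains of increased severity and the 6 of decreased frequency. Of 20 such groups (10 genes in each class), 16 had an outlying strain, which was C3H/HeJ each time. The 16 are 8 genes counted in both classes with the same C3H/HeJ mean, which holds replicate 2. They rest on 1 array and are not independent. That array was named with its values known, so the count follows from the choice and supports nothing. The check marks about 1 in 20 groups by chance, a rate that does not apply to groups chosen this way. The C3H/HeJ mean over 3 arrays was 5.96 for Myh1, where the nearest strain of increased severity was at 3.97, 6.18 for Myh2, 4.90 for Myh4, 8.13 for Acta1, 7.95 for Tnnt3, 6.84 for Tnni2, 7.24 for Atp2a1 and 5.31 for Pvalb. Ckm and Myh7 had no outlying strain in either class. The mean over C3H/HeJ replicates 1 and 3 alone was 3.85 for Myh1, 4.27 for Myh2, 4.11 for Myh4, 6.41 for Acta1, 6.44 for Tnnt3, 5.80 for Tnni2, 5.42 for Atp2a1 and 4.09 for Pvalb.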

How the results depend on the processing

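The median difference of C3H/HeJ replicate 2 (4.04) and the 9 genes past the fold kept their direction and stayed near these values under every alternative run on them: quantile normalization gave 4.07, median centring 3.96 and the other references 4.05 and 4.08, and leaving out each other array 4.03 to 4.05. The count of genes called higher in C3H/HeJ, 5 of 10, moved. It went to 0 with an intensity trend and a robust prior, to 0 with array weights, and to between 0 and 9 with 1 array left out. The cause of these moves was not tested. With dim probe sets left out the count was 3, out of fewer than 10 genes, since some of the 10 are themselves dim. That filter took out Myh2, Myh4 and Atp2a1, which had been called, and kept Acta1 and Ckm, which stayed called. The 3 thus include a gene not called in the main fit. The F test on 27 arrays called 2 genes with array weights against 1, and 1 to 3 with 1 array left out. Strain pairs called went from 11 to 23 without the minimum difference; on 26 arrays, an alternative chosen after seeing the data, there were 10. The F test on 26 arrays called 3 or 4 genes under the alternatives run. Of 300 values of single-gene differences on replicate 2 under the alternatives, 296 moved by less than the spread between replicates, 4 by more and 0 reversed. No gene was called between adenoma classes under any alternative run.

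With the replicate number as a block (replicate block) 7 genes were called higher in C3H/HeJ, and the F test called 1 on 27 and 3 on 26 arrays. The numbers do not pair the mice: deviations of the 108 same-number array pairs correlated at -0.27 to 0.28, 24 of them over 0.1, and 11 of 27 arrays were closest to their own number.

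Array weights, the block and filters were not applied to single-array differences, nor weights and the block to the adenoma classes. Probe sets in the Y-linked range limit what can be said of Myh1, Myh2, Myh4 and Pvalb outside C3H/HeJ replicate 2.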
